A study of Homo sapiens with 6 samples.

Results

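The BCL2 family, which sets whether the mitochondrial outer membrane is opened in apoptosis, was followed in MCF10A cells carrying ErbB2 through 10 genes. These were the pro-survival genes BCL2, BCL2L1, MCL1 and BCL2L2, the pore-forming effectors BAX and BAK1, and the BH3-only genes BID, BCL2L11, BMF and BBC3. A gene was taken from a probe set that the platform annotation pairs with exactly 1 gene symbol. By that rule 9 of the 10 were measured, out of 18417 genes in all. BCL2L2, which encodes the pro-survival protein BCL-W, is named on a probe set that also carries the read-through gene BCL2L2-PABPN1 and was not analysed here. MCF10A is an established human breast epithelial line that does not form tumours, and ErbB2 is a receptor tyrosine kinase. The RB-deficient group held 3 arrays, whose titles carry the tag miRB, and the RB-proficient group held 3 arrays tagged miNS. Neither tag is spelled out in the labels. RB is the retinoblastoma protein, which holds back E2F transcription factors. Both groups carried ErbB2 and were grown for 7 days in 3-D culture in reconstituted membrane, with insulin, hydrocortisone, cholera toxin and horse serum in the medium. Cells and matrix were lysed together, and 1 RNA sample went onto each array. The labels do not say whether the replicates were separate cultures, so the p-values cover only the variation among these samples, and that may be technical.

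In healthy cells the pro-survival proteins hold BAX and BAK in check. BH3-only proteins, which are induced or released by stress, growth factor loss or detachment from matrix, bind the pro-survival proteins or engage BAX and BAK directly, and the effectors then form pores that release cytochrome c. MCF10A cells in reconstituted membrane form hollow spheres, and the inner cells, which lack contact with the matrix, die by a route in which BIM (BCL2L11) and BMF are known to act. Active ErbB2 is known to fill these lumens, and signalling through ERK is known to keep BIM low. The arrays measured RNA of whole cultures, and lumen formation itself was not analysed here.

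Values below are log2 intensities after scaling all arrays to the same median, with intensities under 1 set to 1, so that 0 is the lowest possible value. Differences are RB-deficient minus RB-proficient on the log2 scale with n = 3 per group, tested with limma, with Benjamini-Hochberg adjustment over the 18417 genes. The median difference of all genes was -0.21. The number of arrays limits the precision. The arrays labelled RB-deficient were more unlike each other (Pearson's r across genes 0.673 to 0.753) than the RB-proficient ones (0.901 to 0.924), and RB-deficient array 3 stood nearest to the RB-proficient arrays (0.832 to 0.882). The labels are kept throughout, and single arrays are called RB-deficient arrays 1 to 3. RB1 itself was at 3.45, 5.09 and 6.04 in arrays labelled RB-deficient and at 7.01, 5.77 and 7.65 in the RB-proficient arrays. RB1 thus overlapped between the groups, and every direction below rests on the labels. The reference genes ACTB (difference -1.92) and GAPDH (-1.23) were lower in every array labelled RB-deficient than in any RB-proficient array. Of 8 measured mammary epithelial markers, 6 had lower means, against 58.6% of all genes. Their summed signal was 10.9 to 11.5 in RB-deficient and 11.5 to 12.5 in RB-proficient arrays, with none at 0. The median difference of the 8 was -1.30. KRT8 (-1.33), KRT18 (-1.27), CDH1 (-1.54) and ITGB4 (-2.29) lay wholly lower in arrays labelled RB-deficient, 4 of 8 against 15.3% of all genes. EPCAM (0.24) lay wholly higher, 1 of 8 against 7.12%, and KRT5 differed by -2.40 with overlap. The summed signal of 7 fibroblast markers was 7.14 to 8.19 in RB-deficient and 7.17 to 7.58 in RB-proficient arrays. That of 5 leukocyte markers was 7.66 to 7.98 in RB-deficient and 8.39 to 8.85 in RB-proficient arrays, and that of 5 endothelial markers was 8.26 to 8.49 in RB-deficient and 8.90 to 9.22 in RB-proficient arrays. These 2 sums came mostly from their brightest genes, CD68 (-1.16) and CDH5 (-0.86). Each list had 3 lower and 2 higher means, with PTPRC (1.38) wholly higher and VWF (0.57) higher with overlap. Of the fibroblast, leukocyte and endothelial markers only COL3A1 reached 0, in the array labelled RB-deficient 1. The part of the reference genes, the markers and the spread of the arrays in the results below was not tested.

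No BCL2 family gene passed the adjusted threshold of 0.05 in limma's test, where 0.00543% of all genes were called lower and 0% higher. The clearest separation was in BCL2L1, MCL1 and BAK1, whose values in all 3 arrays labelled RB-deficient lay below all 3 RB-proficient values. That is 3 of 9 members, against 15.3% of all genes. None of the 9 lay wholly above, against 7.12% of all genes. At an unadjusted p under 0.05, 4 of 9 were lower (these 3 and BMF), against 10.8% of all genes, and 0 of 9 were higher, against 2.85%. In bulk RNA, fewer cells of one kind and less RNA per cell cannot be told apart. By direction alone, 7 of 9 members had lower means and 2 of 9 higher ones, against 58.6% and 41.4% of all genes. The count of 4 was 1 without RB-proficient array 3 and 2 without RB-proficient array 1, RB-deficient array 1 or RB-deficient array 2, while it stayed at 4 without RB-deficient array 3, where BBC3 was also counted as higher. It was 1 without RB-deficient arrays 1 and 2 together, where BCL2L1 remained.

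**Figure D1:**
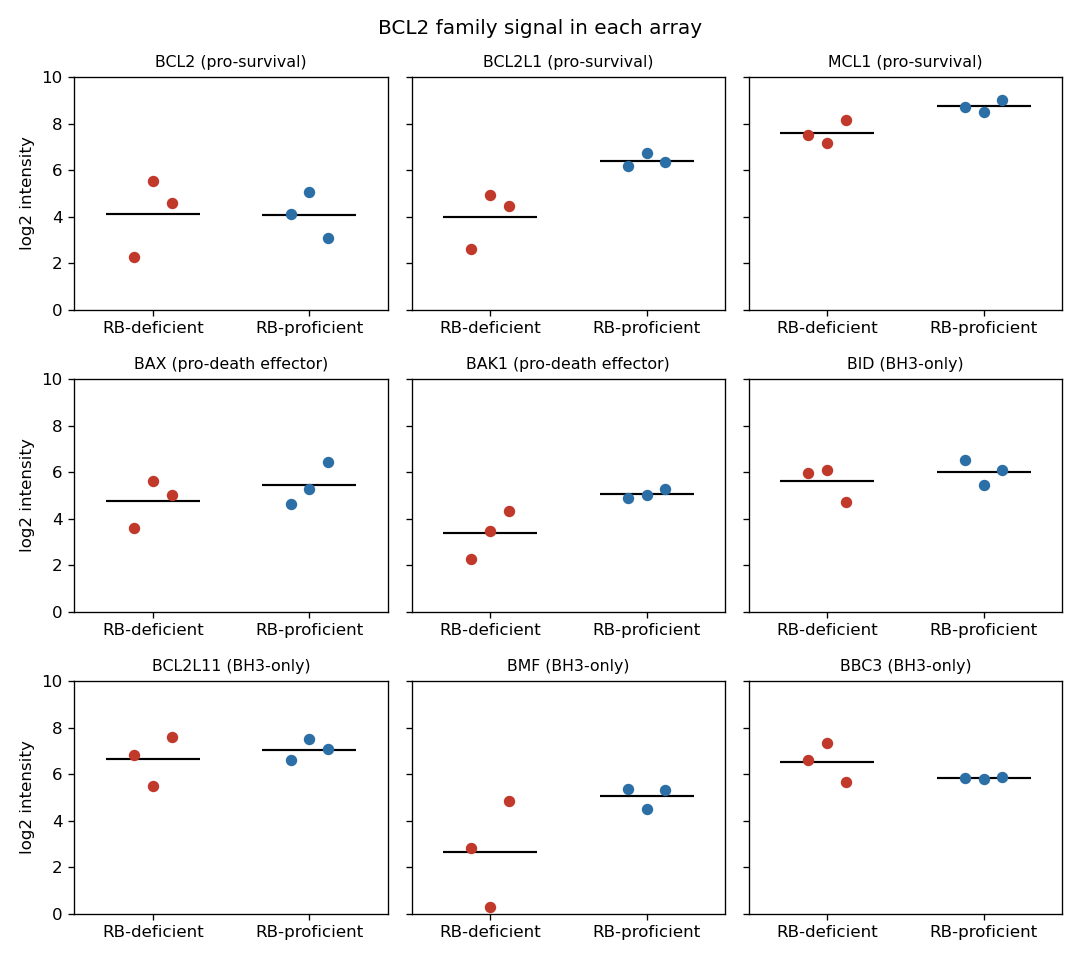
Log2 intensity (vertical axis, 0 to 10) of the 9 measured members, 1 panel per gene with RB-deficient arrays in red at the left and RB-proficient arrays in blue at the right. Points are arrays and lines are group means; the groups do not overlap in BCL2L1, MCL1 and BAK1, and BMF spreads from 0.28 to 4.85 in arrays labelled RB-deficient.

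The promoter windows of BCL2L1 and BAK1 are shown because these 2 genes had the most similar profiles of all member pairs, and that of BCL2L11 because it held the single FOXO match among the members. The windows are from RefSeq on GRCh38.p14 and run from 250 bases before to 50 after a gene start, in the direction of transcription. Of the 9 measured members, 8 had at least 1 window and MCL1 had none. BCL2L1 has a window for each of 2 starts. Capitals mark motif matches.
BCL2L1, first start, chr20:31723914-31724213, minus strand: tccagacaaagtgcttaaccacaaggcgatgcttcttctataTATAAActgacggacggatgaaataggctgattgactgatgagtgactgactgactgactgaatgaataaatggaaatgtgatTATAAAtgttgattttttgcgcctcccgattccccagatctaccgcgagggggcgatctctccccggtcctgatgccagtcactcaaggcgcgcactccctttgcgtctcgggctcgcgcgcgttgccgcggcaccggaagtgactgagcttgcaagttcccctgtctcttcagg
BCL2L1, second start, chr20:31722819-31723118, minus strand: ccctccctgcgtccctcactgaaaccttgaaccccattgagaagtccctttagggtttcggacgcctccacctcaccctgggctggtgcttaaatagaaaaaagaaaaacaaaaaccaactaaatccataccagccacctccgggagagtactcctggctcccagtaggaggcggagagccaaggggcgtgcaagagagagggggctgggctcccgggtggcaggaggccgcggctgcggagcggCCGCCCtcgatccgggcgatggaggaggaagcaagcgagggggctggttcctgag
BAK1, chr6:33580227-33580526, minus strand: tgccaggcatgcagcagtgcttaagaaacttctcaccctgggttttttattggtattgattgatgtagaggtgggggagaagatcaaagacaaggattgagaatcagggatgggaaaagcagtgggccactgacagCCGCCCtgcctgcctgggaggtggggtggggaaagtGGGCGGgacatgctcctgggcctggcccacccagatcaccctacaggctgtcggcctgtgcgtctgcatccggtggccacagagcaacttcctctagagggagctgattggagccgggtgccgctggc
BCL2L11, chr2:111120664-111120963, plus strand: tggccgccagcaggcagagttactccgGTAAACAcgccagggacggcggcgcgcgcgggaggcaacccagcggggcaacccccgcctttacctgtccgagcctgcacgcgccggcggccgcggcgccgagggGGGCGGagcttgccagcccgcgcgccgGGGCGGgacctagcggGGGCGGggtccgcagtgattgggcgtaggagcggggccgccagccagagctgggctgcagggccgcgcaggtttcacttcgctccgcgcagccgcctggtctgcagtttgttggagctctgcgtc

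The motifs of E2F, FOXO, the GC box and the TATA box were searched on both strands, and no matches of different motifs overlapped in the members' windows. The E2F motif, taken as TTTGGCGC, TTTCCCGC, TTTCGCGC or TTTGCCGC, was in 0 of 14 windows from the 8 genes and in 3.31% of all 35116 windows. The FOXO motif GTAAACA was in 1 of the 14 windows, at bases 28 to 34 of the BCL2L11 window, and in 3.42% of all windows. The GC box GGGCGG was in 9 of the 14 windows, belonging to 6 genes, and in 45% of all windows. Some windows of BID overlap, so the same GC boxes are counted more than once among the 14. The BAK1 window had 2 GC boxes, and the second BCL2L1 window had 1. The TATA box TATAAA was in 1 of the 14, the first BCL2L1 window, which had 2 matches, and in 11.5% of all windows. These matches were at bases 43 to 48 and 126 to 131, well before the gene start, which follows base 250. A match describes these letters only, and its absence says nothing about the factor. The windows held 48% to 78% G and C, against a median of 58.7% for all windows.

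Among the pro-survival genes, BCL2L1 had the largest difference. BCL2L1 encodes BCL-XL, which restrains BAX and BAK in epithelial cells (probe set 8065569). Its deposited intensities were 4.78, 30.8 and 22.9 in arrays labelled RB-deficient and 71.7, 107 and 73.1 in the RB-proficient arrays. The log2 values were 2.58, 4.95 and 4.46, against 6.16, 6.72 and 6.34 in RB-proficient arrays. All 3 RB-deficient values lay more than 1 log2 unit below the lowest RB-proficient value, and RB-deficient array 1 was the lowest. The mean was 3.997 ± 1.25 in RB-deficient and 6.41 ± 0.29 in RB-proficient arrays (SD, n = 3 each). The difference was -2.41 (SE 0.66, 95% interval -3.89 to -0.93), a 5.32-fold lower signal. The adjusted p was 0.214 in limma's test, and 2.52% of all genes had a difference at least as low. With an offset of 16 added before the log the difference was -1.57 and the adjusted p 0.0506, the closest any member came to the threshold.

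MCL1, a short-lived pro-survival protein that binds BAK and BIM, was lower in a more even way (probe set 7919751). Its deposited intensities were 145, 142 and 295 in arrays labelled RB-deficient and 416, 372 and 470 in the RB-proficient arrays. On the log2 scale these were 7.51, 7.16 and 8.14 against 8.70, 8.52 and 9.03 in RB-proficient arrays. The groups did not overlap, and RB-deficient array 3 lay closest to the RB-proficient values. The difference was -1.15 (SE 0.50, interval -2.26 to -0.03), or 2.21-fold, with an adjusted p of 0.356, and 17.99% of all genes were at least as low. MCL1 was -0.61 without RB-deficient arrays 1 and 2.

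BCL2, the founding member of the family and a mitochondrial and endoplasmic reticulum membrane protein, showed no common direction (probe set 8023646). It was at 2.25, 5.54 and 4.58 in arrays labelled RB-deficient and at 4.12, 5.04 and 3.08 in the RB-proficient arrays. RB-deficient array 1 was the lowest of the 6 arrays and RB-deficient array 2 the highest. The difference was 0.04 (SE 0.86), with an interval of -1.89 to 1.98 that spans changes in either direction, and an adjusted p of 0.985.

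The effectors BAX and BAK1 encode the proteins that form the pore. BAK1, whose protein sits in the mitochondrial outer membrane and is held by BCL-XL and MCL1, was at 2.27, 3.49 and 4.33 in arrays labelled RB-deficient and at 4.87, 5.04 and 5.29 in the RB-proficient arrays (probe set 8125766). The RB-deficient values were spread (SD 1.04) and the RB-proficient ones tightly grouped (SD 0.21), and all 3 RB-deficient values were lower. The BAK1 difference was -1.70 (SE 0.60, interval -3.05 to -0.35), or 3.25-fold, with an adjusted p of 0.279, and 7.97% of all genes were at least as low. It was -0.86 with the offset of 16, -0.95 with a floor of 16 and -0.73 without RB-deficient arrays 1 and 2. BAX, which moves from the cytosol to mitochondria on activation, was at 3.61, 5.598 and 5.002 in arrays labelled RB-deficient and at 4.65, 5.27 and 6.42 in the RB-proficient arrays (probe set 8030158). The BAX groups overlapped, and its difference of -0.71 (SE 0.68, interval -2.24 to 0.82) had an adjusted p of 0.664.

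**Figure D2:**
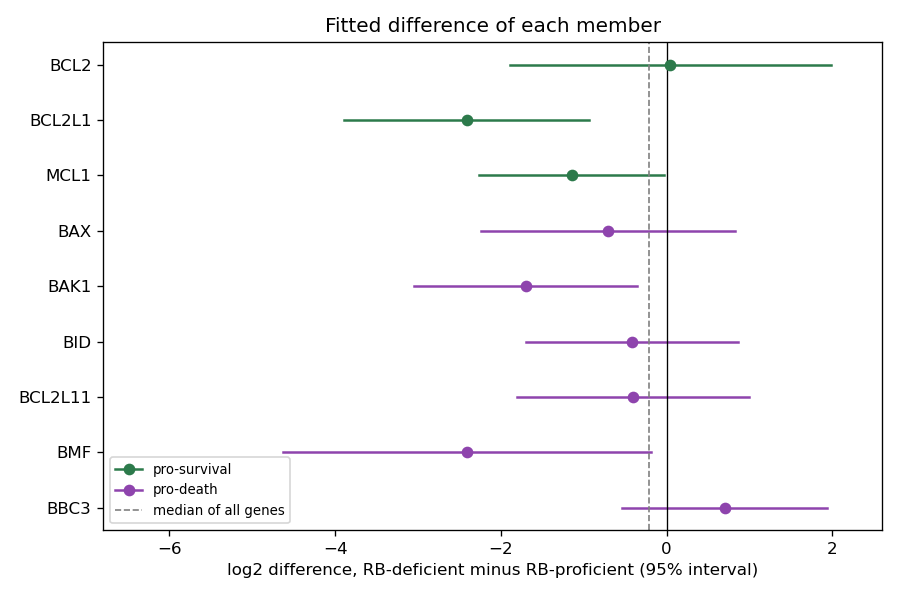
Fitted log2 difference, RB-deficient minus RB-proficient (horizontal axis), of each measured member with its 95% interval; green marks pro-survival and purple pro-death genes, and the dashed line is the median of all genes (-0.21). The intervals of BCL2L1, MCL1, BAK1 and BMF lie below 0, and no member passed after adjustment over all genes.

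The BH3-only genes did not share a direction. BMF, whose protein is tied to the actin cytoskeleton through a dynein light chain and is freed by loss of attachment, was the most variable member (probe set 7987454). Its deposited intensities were 5.62, 1.21 and 30.1 in arrays labelled RB-deficient and 41.3, 22.6 and 35.8 in the RB-proficient arrays. The log2 values of BMF were 2.82, 0.28 and 4.85 in arrays labelled RB-deficient, against 5.37, 4.48 and 5.31 in RB-proficient arrays. RB-deficient arrays 1 and 2 lay below all RB-proficient arrays, while RB-deficient array 3 lay above RB-proficient array 2. The difference was -2.41 (SE 0.99, interval -4.62 to -0.19), or 5.30-fold, with an adjusted p of 0.328. It rests on the low end of the scale and on 2 arrays: it was -0.77 with a floor of 16, -0.93 with the offset of 16, -1.22 without RB-deficient array 2 and -0.21 without RB-deficient arrays 1 and 2.

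BCL2L11 encodes BIM, a BH3-only protein that binds all major pro-survival members (probe set 8044375). It was at 6.84, 5.51 and 7.59 in arrays labelled RB-deficient and at 6.59, 7.49 and 7.08 in the RB-proficient arrays. RB-deficient array 3 was the highest of the 6 arrays and RB-deficient array 2 the lowest. The difference was -0.41 (SE 0.62, interval -1.81 to 0.99, adjusted p 0.791). FOXO3, a transcription factor known to activate BCL2L11, differed by 0.09 (SE 0.48), and its relative FOXO1 by -0.45 (SE 0.53).

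BID, which links death receptors to mitochondria once caspase-8 cuts it, was at 5.98, 6.09 and 4.73 in arrays labelled RB-deficient and at 6.52, 5.44 and 6.09 in the RB-proficient arrays (probe set 8074261). The groups overlapped and the BID difference was -0.42 (SE 0.57, interval -1.70 to 0.86, adjusted p 0.762). BBC3, which encodes PUMA, a BH3-only protein known as a p53 target, was the only BH3-only gene with a higher mean in arrays labelled RB-deficient (probe set 8037872). BBC3 was at 6.61, 7.32 and 5.65 in arrays labelled RB-deficient and at 5.84, 5.78 and 5.86 in the RB-proficient arrays. RB-deficient arrays 1 and 2 lay above all RB-proficient arrays and RB-deficient array 3 below all of them. The RB-deficient SD was 0.84 and the RB-proficient SD 0.04, the smallest of any member. The BBC3 difference of 0.70 (SE 0.55, interval -0.54 to 1.93) had an adjusted p of 0.593, and 13.5% of all genes were at least as high. It was 0.30 without RB-deficient array 2, 1.14 without RB-deficient array 3 and -0.18 without RB-deficient arrays 1 and 2.

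Set side by side, the measured pro-survival members were lower than the pro-death members by their medians. The median difference was -1.15 over the 3 measured pro-survival genes and -0.56 over the 6 pro-death genes, against -0.21 over all genes. By array, the pro-survival medians were -1.83, -1.46 and -0.61 in RB-deficient arrays 1 to 3, as deviations from the RB-proficient mean. The pro-death medians were -1.02, -0.74 and -0.33 in the same arrays, and those of all genes were -0.14, -0.37 and -0.14. The pro-survival median was thus below the pro-death median in each of the 3 arrays. These medians rest on 3 and 6 genes, however, and no test was made of them. The gene at the pro-survival median differed by array, with BCL2, BCL2L1 and MCL1 in RB-deficient arrays 1 to 3. The gap between the 2 medians was -0.58, and it was -0.02 without RB-deficient array 2, -0.28 without RB-deficient arrays 1 and 2 and -0.30 without RB-proficient array 1. Neither class had 1 direction, with BCL2 at 0.04 among the pro-survival genes and BBC3 at 0.70 among the pro-death genes. Within the pro-death class the median difference was -1.20 over the 2 effectors and -0.41 over the 4 BH3-only genes. The effectors alone were thus not above the pro-survival median. Outside the members the order was reversed, with a median of 0.75 over 2 other pro-survival genes and -0.12 over 5 other pro-death genes. The order thus depends on which genes of the family are listed.

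Deviations of the members from their RB-proficient means differed within each array. In RB-deficient array 1, 8 of 9 members lay below their RB-proficient mean, where 54.1% of all genes did, and BCL2L1 (-3.82) and BAK1 (-2.79) were farthest below. In RB-deficient array 2, 5 of 9 lay below, against 60.3% of all genes, with BMF at -4.78 and BBC3 at 1.49 as the extremes. In RB-deficient array 3, 7 of 9 lay below, against 57% of all genes, and BCL2L1 (-1.95) and BID (-1.29) were farthest below. BCL2L1, MCL1, BAK1 and BMF were below their RB-proficient mean in all 3 arrays, and no member was above it in all 3.

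**Figure D3:**
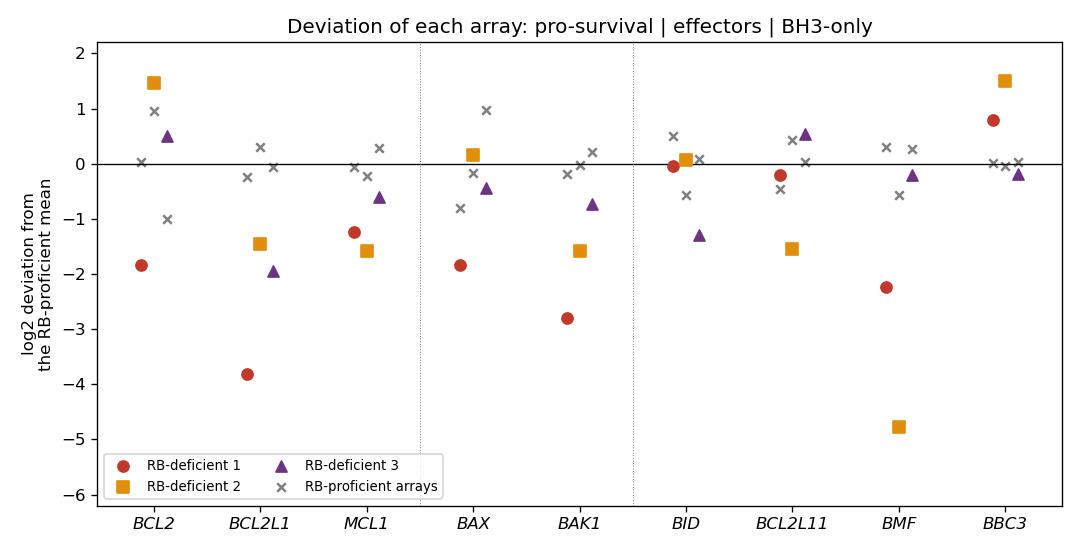
Deviation of each array from the mean of the RB-proficient arrays (vertical axis, log2) for each measured member; coloured symbols are RB-deficient arrays 1 to 3 and grey crosses are RB-proficient arrays. BCL2L1 runs from -3.82 to -1.46 in arrays labelled RB-deficient, while BCL2 and BBC3 have symbols on both sides of 0.

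Likeness of profiles was measured as the root mean square difference between log2 values, each gene centred on its mean over the 6 arrays. Among members, BCL2L1 and BAK1 (0.579) and MCL1 and BAK1 (0.582) were most alike, and BCL2 and BMF were least alike (2.40). Over all genes, the 3 nearest to MCL1 were RBL2 (0.076), a pocket protein related to RB, KIAA1671 (0.091) and H1-2 (0.094), a linker histone. The 3 nearest to BCL2L11 were RMDN2 (0.114), MS4A12 (0.140) and RRAGB (0.155), a GTPase of amino acid sensing. With 6 arrays and 18417 genes, close profiles are a description only.

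Of 61 other measured genes of the pathway, 0 passed limma's adjusted threshold in either direction. At an unadjusted p under 0.05, 5 were lower (10.8% of all genes were) and 2 were higher (2.85% of all genes were). The groups did not overlap for 10 lower and 4 higher of the 61 genes, shares near the 15.3% and 7.12% of all genes, and the list median was -0.45 against -0.21 over all genes.

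Of the other pro-survival BCL2 proteins, BCL2L10 was at 5.45, 4.97 and 4.28 in arrays labelled RB-deficient and at 3.39, 3.79 and 3.91 in the RB-proficient arrays. Its groups did not overlap, and its difference was 1.20 (SE 0.51, adjusted p 0.347). That is 1 of 2 genes wholly higher, against 7.12% of all genes. BCL2A1 differed by 0.30 (SE 0.86). The 5 other pro-death genes had differences from -0.17 to 0.27, and the groups overlapped for each. PMAIP1, which encodes the BH3-only protein NOXA, differed by -0.14 (SE 0.54), HRK by -0.17, BAD by -0.12 and BOK by 0.27. Among 6 atypical members, BCL2L14 differed by 1.79 (SE 0.57, adjusted p 0.253) and BNIP3L, a mitophagy receptor, by -1.49 (SE 0.55, adjusted p 0.290). Both were without overlap, 1 of 6 higher and 1 of 6 lower, against 7.12% and 15.3% of all genes. BCL2L14 was at 2.57, 2.24 and 1.57 in the RB-proficient arrays, low on the scale, which limits what can be read from its size. BCL2L13 differed by -1.33 and BCL2L15 by 0.66, with overlap.

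Downstream of the pore, 9 of 11 genes of the apoptosome, caspases and mitochondrial effectors had lower means, against 58.6% of all genes, with a median of -0.98, and 4 did not overlap, against 15.3% of all genes. DFFA, the inhibitor and chaperone of the apoptotic DNase, was at 0, 2.99 and 2.98 in arrays labelled RB-deficient (0 being the floor) and at 4.66, 5.36 and 6.45 in the RB-proficient arrays. The DFFA difference was -3.50 (SE 0.86) with an adjusted p of 0.210, and its size depends on the floor. CASP2 (-1.77), CASP6 (-1.63), an executioner caspase, and AIFM1 (-0.98) were the other 3 without overlap. The outer membrane channels VDAC1 (0.33), VDAC2 (-0.39) and VDAC3 (-0.46) overlapped between groups. Of 5 inhibitors of apoptosis 2 had lower means, BIRC5 (-1.35, SE 1.04) and BIRC6 (-1.06, SE 0.72), against 58.6% of all genes. BIRC7 (0.67, SE 0.46) lay above without overlap, 1 of 5 against 7.12% of all genes, while BIRC2 differed by 0.32.

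In the death receptor pathway 9 of 12 genes had lower means, against 58.6% of all genes. Of the 12 genes, 2 lay wholly lower and 1 wholly higher, against 15.3% and 7.12% of all genes. TNFRSF10D, a decoy receptor for the death ligand TRAIL, was at 2.63, 2.69 and 2.82 in arrays labelled RB-deficient and at 4.55, 4.38 and 5.004 in the RB-proficient arrays. The difference was -1.93 (SE 0.47, adjusted p 0.210), and the groups did not overlap. The RB-deficient values are low on the scale, which limits what can be read from its size. TNFRSF10B, a signalling TRAIL receptor, differed by -1.26 (SE 0.65) and CASP8, the protease that cuts BID, by -1.53 (SE 0.72), both with overlap. FASLG differed by 0.83 (SE 0.47) and was the gene that lay wholly higher.

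Genes that act on single members were also read. All 5 genes of MCL1 turnover had lower means, against 58.6% of all genes, with a median of -1.16. Their median deviation from the RB-proficient mean was -2.26, -0.82 and 0.01 in RB-deficient arrays 1 to 3. The list median thus rests on RB-deficient arrays 1 and 2. BTRC, a ubiquitin ligase subunit, differed by -1.74 (SE 0.54, adjusted p 0.246) and HUWE1, the ubiquitin ligase that marks MCL1 for destruction, by -1.67 (SE 0.65, adjusted p 0.304). These 2 of 5 did not overlap, against 15.3% of all genes lying wholly lower. GSK3B differed by -1.16, FBXW7 by -0.77 and USP9X by -0.52, with overlap. Upstream of BIM and BMF, 8 of 10 genes had lower means and 1 lay wholly lower, against 58.6% and 15.3% of all genes. That gene was DYNLL1, the dynein light chain that binds BIM (-0.52, SE 0.47). FOXO4 differed by -0.62, MAPK3, which encodes ERK1, by -0.58 and MAPK9 by -0.47. E2F1, which can induce BH3-only genes, differed by -0.24 (SE 0.63) and TP73, a p53 relative, by 1.14 (SE 0.56, adjusted p 0.400), both with overlap.

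**Figure D4:**
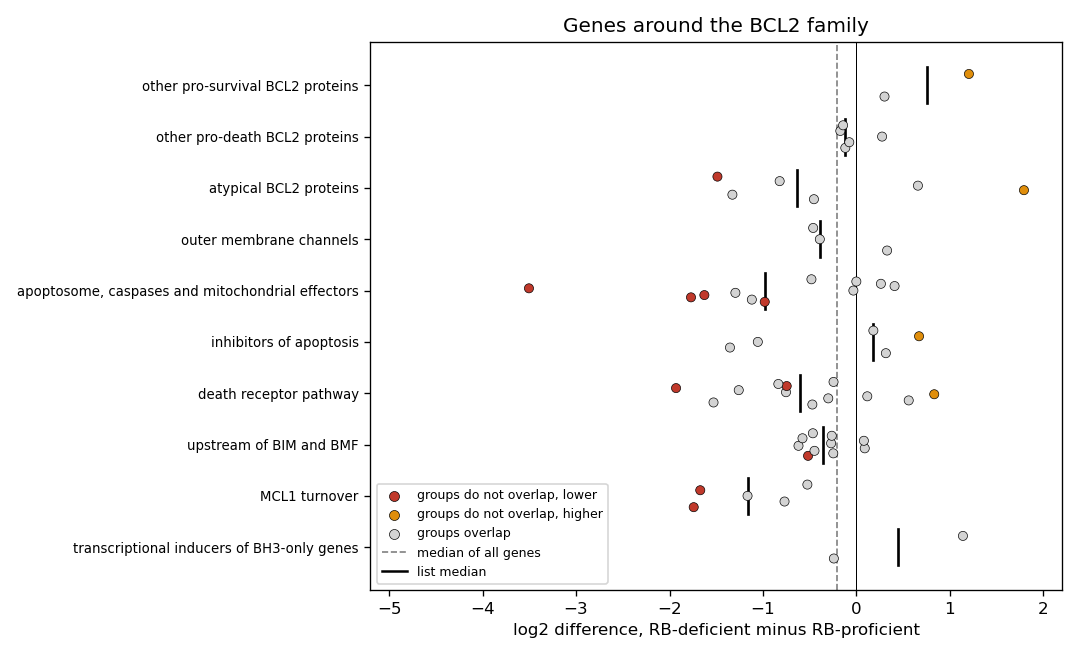
Log2 difference, RB-deficient minus RB-proficient (horizontal axis), of the 61 other pathway genes by list; points are genes, black bars list medians and the dashed line the median of all genes. Red points, such as DFFA at -3.50 and TNFRSF10D at -1.93, are genes whose groups do not overlap with the RB-deficient values lower, and orange points those with them higher.

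Each member's difference was recomputed under the other processing settings and with arrays left out. Some of these could not change a member's difference and so do not check its sign. They were leaving out dim genes, the mean or all of a gene's probe sets, trend and robust eBayes, and the replicate block. BCL2L1 stayed negative in all 19 alternatives, from -2.89 to -1.57, as did MCL1, from -1.41 to -0.61. BAK1 was negative in the 18 alternatives that measured it, from -2.18 to -0.73, and BMF in 17, from -3.51 to -0.21. BAX, whose groups overlapped, ran from -1.14 to -0.15. BCL2, BID, BCL2L11 and BBC3 changed sign in at least 1 alternative each.

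**Figure D5:**
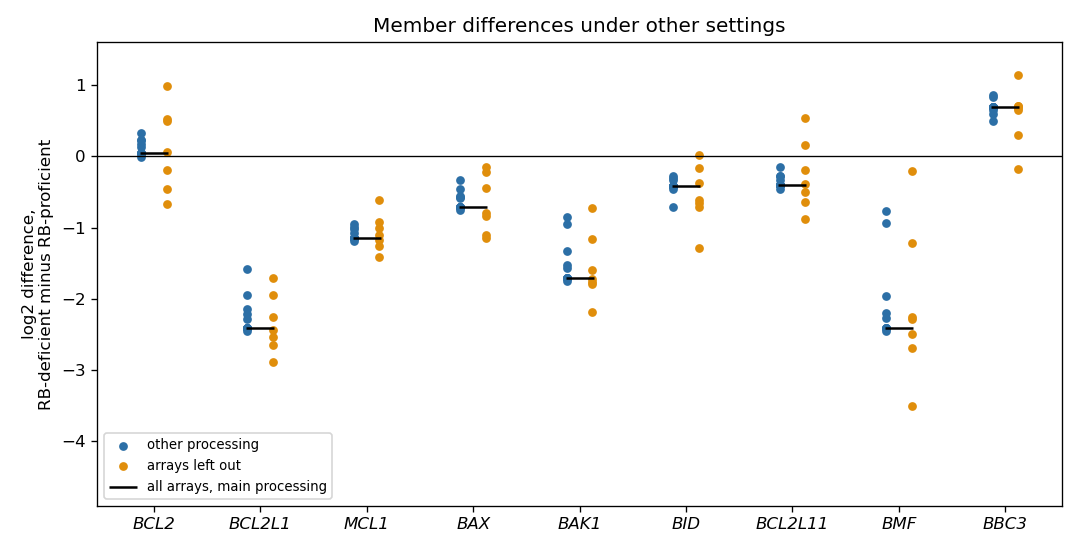
Log2 difference, RB-deficient minus RB-proficient (vertical axis), of each measured member with all arrays (black bar), under other processing (blue) and with arrays left out (orange). BCL2L1 stays between -2.89 and -1.57, while BMF runs from -3.51 to -0.21.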

How the data were processed

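Per the submitters' processing notes, the authors made the deposited intensities, 1 per probe set and array on a linear scale, with Affymetrix Expression Console 1.1. How probe sets were summarised, background-corrected and normalized is not given in the sources used here. Values ran from 3.53e-05 to 7075 and column medians from 21.4 to 28.0, so arrays were scaled to the median of these, floored at 1 and put on the log2 scale. It is not known which probe sets lay above background. Of 33297 probe sets, 19460 had 1 gene symbol, 1754 several and 12083 were not listed. The brightest probe set by mean over 6 arrays stood for a gene that had several, and each member had 1.

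The comparison used limma 3.58.1 under R 4.3.3, with lmFit and a two-sided eBayes test without covariates, over 18417 genes. The fit was first run on simulated data in which both groups had the same spread. In these arrays the median gene SD was 0.842 in RB-deficient and 0.397 in RB-proficient arrays, and the simulation did not cover that inequality. The members and lists were chosen with earlier results of these data known. The text names all members, up to 4 genes of each other list by smallest p, RB1, ACTB, GAPDH and the 3 genes most like BCL2L11 and MCL1. FOXO1, FOXO3, USP9X, CDH1 and EPCAM were added after their values were seen. Some genes of the lists were not analysed here, and counts are over the measured ones. All 6 arrays held different values. Same-numbered arrays of the groups deviated with correlations of -0.12, 0.07 and -0.11, so no pairing was used. The alternatives were quantile normalization, centring, no scaling, leaving out the dimmest 25% or 50% of genes, the mean or all of a gene's probe sets, trend and robust eBayes, array weights, a replicate block, arrays left out, and a floor or offset of 16.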

Additional observations from a re-analysis of the deposited data

How the results depend on the processing

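In limma's test 0 members and 0 other pathway genes passed the adjusted threshold in each of 19 alternatives, the replicate block among them, where 3 members had an unadjusted p under 0.05 against 4 without it, and the pro-survival and pro-death medians were -1.15 and -0.56 in both. With single arrays left out, the pro-survival median ran from -1.41 to -0.92 and the pro-death median from -0.90 to -0.39. Without RB-deficient arrays 1 and 2, which leaves 1 array assumed to vary like the RB-proficient ones, the pro-survival median was -0.61, BCL2L11 turned to 0.54 and BBC3 to -0.18. BCL2 ran from -0.67 to 0.98 with single arrays left out, turning to -0.67 without RB-deficient array 2, -0.19 without RB-deficient array 3, -0.46 without RB-proficient array 3 and -0.0022 without scaling. BCL2L11 ran from -0.88 to 0.16, turning to 0.16 without RB-deficient array 2, and BID from -0.70 to 0.019, turning to 0.019 without RB-deficient array 3. The cause was not tested. The pro-survival median was below the pro-death median in all 17 alternatives that gave both, but these are not 17 separate checks. Centring, the mean or all of a gene's probe sets, trend and robust eBayes and the replicate block could not change the gap. It stayed at -0.58 in these and without scaling, and it was only -0.02 without RB-deficient array 2. BMF was removed by both filters on dim genes, and BCL2 and BAK1 by the stricter one. The count of members at an unadjusted p under 0.05 was 2 with quantile normalization and with the dimmest 50% of genes left out. Of all 18417 genes, the number past the threshold was 1 as reported, 61 with trend and robust, 58 with the floor of 16 and 193 with the offset of 16. The median of all genes moved to -0.09 with quantile normalization, -0.08 with centring, -0.08 with the offset of 16 and 0 with the floor of 16. Signals near the floor, as for BMF, limit what can be read from size.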
